A study of Selaginella moellendorffii with 8 samples.

Results

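The 102 gene models described here were those of Selaginella moellendorffii that reached at least 200 CPM in every one of 8 RNA-seq libraries, out of 25004 models in the deposited count table. CPM are counts divided by the library's total and put on a fixed common total, here after TMM scaling, which levels the libraries by a trimmed mean of the ratios between them. Members were selected on these CPM values and ranked by the lowest of their 8 values. The rule allowed up to 150, but 102 met it. These levels chose the members, so the levels, shares of counts and spreads below are descriptions without a test.

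The libraries came from 4 organs of this lycophyte, with 2 libraries each labelled as biological repeats and 40 pieces of tissue pooled per library. Leaves were whole microphylls of 10 to 14 days, and rhizophores were outgrowths of the ventral angle meristem, 4 to 7 days old and 2.5 to 3.5 cm long, without cap, hairs, green colour or microphylls. Roots were outgrowths of the same meristem that had a cap and hairs, measured 5 to 10 cm and were aged 10 to 20 days, and shoots were green distal tips taken 10 to 20 days after branching. The labels give 80% humidity with 16 h of light and 8 h of dark for all 8 libraries. No treatment was applied and the labels name no genetic change, age differed between the organs, and rhizophores were the youngest. Separate plants are not stated for the repeats. All p-values therefore measure the spread between these samples only, and that spread may be technical.

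A rhizophore is a leafless axis that grows down from a branch point of the stem and later bears roots, and a microphyll is the small single-veined leaf of lycophytes. In plants, transcripts that are plentiful in every organ commonly encode parts of the protein-making machinery, the cytoskeleton and basic metabolism. Whether the members do could not be read from the names: the files identify them by a number or by a name starting in Smoe, and 0 of the 102 matched the reference table of genes. They are therefore described by identifier and level.

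Total counts ran from 2826533 in leaf replicate 1 to 27891111 in root replicate 2, and the other 6 libraries held 10063538 to 25937179. At these depths 200 CPM stood for 465 counts in leaf replicate 1 and 9693 in root replicate 2, and the lowest count of any member in any library was 481. The authors' deposited table of organ averages disagreed with the count table on 1 column. A weighted sum of CPM columns matched their Root average, with the library labelled rhizophore replicate 2 at a weight of 49.6% and the root libraries at 24.9% and 25.5%. Rhizophore replicate 1 alone had a weight of 99.2% in their Rhizophore average. The count table's label was kept, and the spread, the highest organ, the tests between organs and the list itself are also given without the library labelled rhizophore replicate 2.

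The rule did not use the names of the models. Of the 102 members, 89 (87.3%) had Smoe names, against 2719 (10.9%) of all 25004 models. Among the 509 other models with a mean of at least 200 CPM over the libraries, 188 (36.9%) had them. Levels sorted the names further: all 15 members with a lowest value of 800 to 1600 CPM and all 41 at 400 to 800 CPM were Smoe models, and the 13 members with numeric names fell among the 46 at 200 to 400 CPM.

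Many members came as copies in the count table. Exactly the same count in each of the 8 libraries was found for 48 members (47.1%), which formed 24 groups of 2, all of Smoe models. The same held for 720 (3.04%) of the 23662 models tested and for 32 (6.29%) of the 509 other models with a mean of at least 200 CPM. The members thus held 78 distinct profiles of counts, and no further member lay within 0.1 log2 of another model in all 8 libraries. Members with the same counts may draw on the same reads, so they are not independent. Shares, the highest organ, the spread and the tests between organs are also given with each profile taken once.

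The members took 8.57% and 8.43% of all counts in the leaf libraries, 9.71% and 11.7% in rhizophore, 11.8% and 12.9% in root, and 7.87% and 7.71% in shoot. The mean share was 8.5% ± 0.101 in leaf (SD, n = 2 for each organ), 10.7% ± 1.43 in rhizophore, 12.4% ± 0.743 in root and 7.79% ± 0.110 in shoot. Both root libraries stood above all leaf and shoot libraries, and rhizophore replicate 2 lay next to root. The exact 95% binomial intervals, which cover counting error only, were narrow: 8.541 to 8.606% for leaf replicate 1, the shallowest library, and 12.88 to 12.90% for root replicate 2. With each profile taken once, the shares were 6.88% and 6.74% in leaf, 7.50% and 8.89% in rhizophore, 8.96% and 9.71% in root, and 6.34% and 6.22% in shoot.

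**Figure D1:**
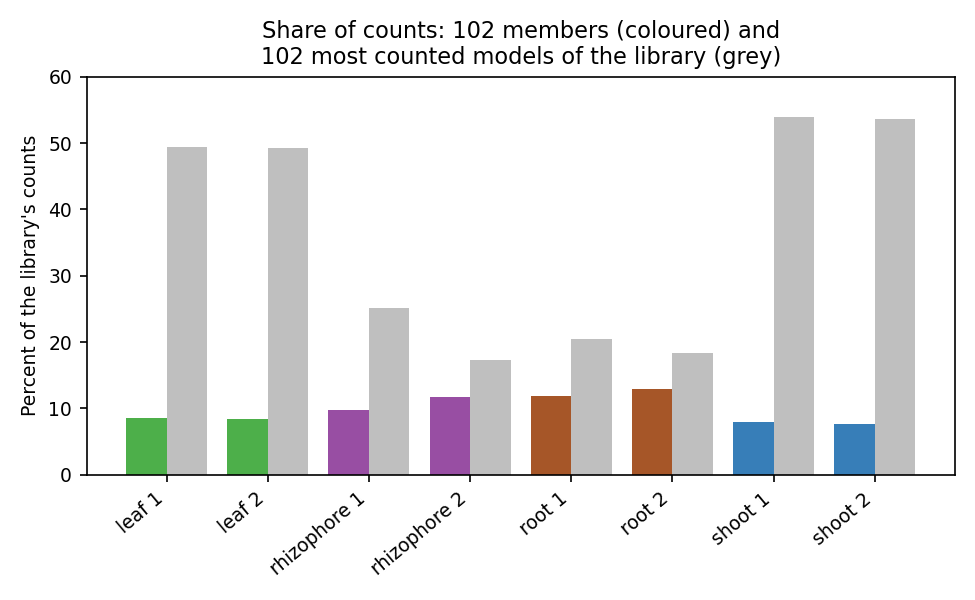
Percent of each library's counts (vertical axis, from 0) taken by the 102 members (coloured bars) and by the 102 most counted models of that library (grey bars), for 2 libraries per organ. The members reach 7.71 to 12.9%, whereas the grey bars range from 17.3% in rhizophore replicate 2 to 54.0% in shoot replicate 1.

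Being present at 200 CPM everywhere was not the same as leading a library. The 102 most counted models of each library took 49.4% and 49.2% of counts in leaf, 25.2% and 17.3% in rhizophore, 20.5% and 18.3% in root, and 54.0% and 53.7% in shoot. Of these lists, members made up 29 and 29 models in leaf, 33 and 57 in rhizophore, 61 and 70 in root, and 26 and 28 in shoot. The median rank of a member was 174.5 and 177.5 in leaf, 155.5 and 89 in rhizophore, 87 and 71 in root, and 194 and 193.5 in shoot. Members ranked nearest the top in both root libraries and the library labelled rhizophore replicate 2, the 3 libraries in which the leading models took least of the counts. The number of models at 200 CPM or more was 653 and 759 in leaf, 571 and 667 in rhizophore, 379 and 310 in root, and 775 and 791 in shoot.

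The organ in which a member was highest depended on the scaling. With TMM, 1 member was highest in leaf, 32 in rhizophore, 18 in root and 51 in shoot, or 1, 25, 14 and 38 of the 78 profiles. Of all models tested, 8.98% were highest in leaf, 26.2% in rhizophore, 46.5% in root and 18.3% in shoot. Without the library labelled rhizophore replicate 2, 2 members were highest in leaf, 28 in rhizophore, 25 in root and 47 in shoot. With DESeq2's size factors, another way to set libraries to a common level, 6 were highest in leaf, 35 in rhizophore, 28 in root and 33 in shoot. With library sizes alone they were 9 in leaf, 28 in rhizophore, 65 in root and 0 in shoot. The median member stood at 685 CPM in leaf, 653 in rhizophore, 617 in root and 721 in shoot by TMM, against 5.17 to 7.72 CPM for the median of all models tested in a library. Levels below are TMM CPM, and in bulk tissue fewer cells of a type and less RNA per cell cannot be told apart.

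The first-ranked member, Smoe_00036198, was far above the others in leaf and shoot. It stood at 22469 and 24219 CPM in leaf, 2438 and 2612 CPM in rhizophore, 1556 and 2311 CPM in root, and 27446 and 25883 CPM in shoot. It alone took 21.5% and 20.4% of the members' counts in leaf, 3.11% and 2.89% in rhizophore, 2% and 3.11% in root, and 22.2% and 21.3% in shoot. Without it the members' share was 6.73% and 6.71% in leaf, 9.41% and 11.4% in rhizophore, 11.6% and 12.5% in root, and 6.13% and 6.07% in shoot.

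The members ranked next were much more even. Smoe_00037848 stood at 1538 and 1920 CPM in leaf, 2282 and 1331 CPM in rhizophore, 1373 and 1437 CPM in root, and 1937 and 2168 CPM in shoot. Its highest value and its lowest value both came from rhizophore, so the libraries of that organ enclosed those of the other organs. Smoe_00033208 stood at 1727 and 2013 CPM in leaf, 1328 and 1467 CPM in rhizophore, 1700 and 2038 CPM in root, and 2448 and 2066 CPM in shoot. Shoot was highest and rhizophore lowest for this model, 1.84-fold apart at the extremes.

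Ranks 4 to 9 were held by 3 pairs of models with the same counts. Smoe_00040957 and Smoe_00041177 stood at 1361 and 1544 CPM in leaf, 1390 and 2045 CPM in rhizophore, 1258 and 1339 CPM in root, and 1507 and 1542 CPM in shoot. Smoe_00043215 and Smoe_00043431 stood at 1169 and 1262 CPM in leaf, 1349 and 2117 CPM in rhizophore, 1618 and 1380 CPM in root, and 1283 and 1257 CPM in shoot. Smoe_00049658 and Smoe_00050199 stood at 1157 and 1291 CPM in leaf, 1476 and 2088 CPM in rhizophore, 1407 and 1458 CPM in root, and 1370 and 1338 CPM in shoot. In all 3 pairs the library labelled rhizophore replicate 2 held the highest value, and the other 7 libraries lay closer together. Smoe_00008809, the tenth in rank, was the most even of the first 10, with 1236 and 1499 CPM in leaf, 1384 and 1481 CPM in rhizophore, 1345 and 1155 CPM in root, and 1486 and 1511 CPM in shoot, 1.31-fold from end to end.

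At the other end of the ranking, values lay close to 200 CPM in 1 library and often well above it in others. The last members inside were 173723.v1, lowest in leaf replicate 1 at 207 CPM, Smoe_00054117, lowest in rhizophore replicate 1 at 206 CPM, and Smoe_00007469, lowest in root replicate 1 at 203 CPM. The first models outside were Smoe_00049714 with 196 CPM in shoot replicate 2, 178381.v1 with 195 CPM in root replicate 2, and Smoe_00005756 with 192 CPM in rhizophore replicate 1. Over all members the lowest value came from leaf replicate 1 in 24, rhizophore replicate 1 or 2 in 34 and 12, root replicate 1 or 2 in 11 and 20, and shoot replicate 2 in 1.

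The library labelled rhizophore replicate 2 kept a few of the most counted models of the leafy organs out. With the TMM scaling computed anew and the lowest value taken over the other 7 libraries, 111 models met the rule, of which 102 were members. Some of the models that entered did so through the new scaling as well. Smoe_00006176, for example, had 184 CPM in root replicate 2 under the scaling of all 8 libraries. In rhizophore replicate 1, the rhizophore library left, the 111 models took 10.3% of counts, where the 102 members took 9.71%. The mean share became 26.1% in leaf, 16.5% in root and 26.4% in shoot. Most of that gain came from 236852.v1 and 139170.v1, chosen after their values were seen. The model 236852.v1 took 10.3% and 10.2% of counts in leaf, 0.0310% and 0.00488% in rhizophore, 4.26% and 1.70% in root, and 10.9% and 10.7% in shoot. The model 139170.v1 took 6.03% and 6.26% in leaf, 0.0288% and 0.00483% in rhizophore, 1.10% and 0.467% in root, and 6.60% and 6.68% in shoot. Both exceeded 200 CPM in rhizophore replicate 1, at 250.5 CPM for 236852.v1 and 233 CPM for 139170.v1, whereas the library labelled rhizophore replicate 2 had 37.6 CPM of 236852.v1 and 37.2 CPM of 139170.v1. Leaving out any other library, again with the scaling computed anew, gave a list of 107 to 115 models, 99 to 102 of them members. The share then moved by less than 1.5 times in each organ.

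Within the members the leafy organs were nearly alike and the rhizophore libraries were not. The root mean square difference of log2 CPM over the 102 members was 0.24 between the leaf libraries, 0.77 between the rhizophore libraries, 0.39 between the root libraries and 0.08 between the shoot libraries. Leaf replicate 2 lay 0.10 from each shoot library, nearer than leaf replicate 1 did at 0.26 from each. The library labelled rhizophore replicate 2 lay 0.76 and 0.72 from the root libraries, about as far as from rhizophore replicate 1, whereas rhizophore replicate 1 lay 0.94 and 0.92 from them. Over all models tested the order was another: the library labelled rhizophore replicate 2 lay 1.82 from rhizophore replicate 1 and 2.52 and 2.84 from the root libraries. The replicates of the other organs were then 1.78 apart in leaf, 0.97 in root and 0.97 in shoot. The smallest count above 0, which was 5, stood for 2.15 CPM in leaf replicate 1 and 0.438 CPM in leaf replicate 2. The part of depth in the leaf distance was not tested.

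The replicates of an organ were over 2-fold apart in 0 of 102 members in leaf, 17 (16.7%) in rhizophore, 2 (1.96%) in root and 0 in shoot, and of the 78 profiles in 14 in rhizophore and 2 in root. The shares over all models tested were 25.5% in leaf, 38.8% in rhizophore, 27.3% in root and 11.7% in shoot. In TMM CPM, leaf replicate 1, the library with the fewest counts, was below leaf replicate 2 in 98 of 102 members. The median offset was 0.22 on the log2 scale. TMM factors were 0.8217 for leaf replicate 1 and 0.7107 for leaf replicate 2. The members' shares of raw counts were 8.57% and 8.43% in the same order. The parts of scaling and depth in this offset were not tested. Rhizophore replicate 2 was above replicate 1 in 70 members.

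**Figure D2:**
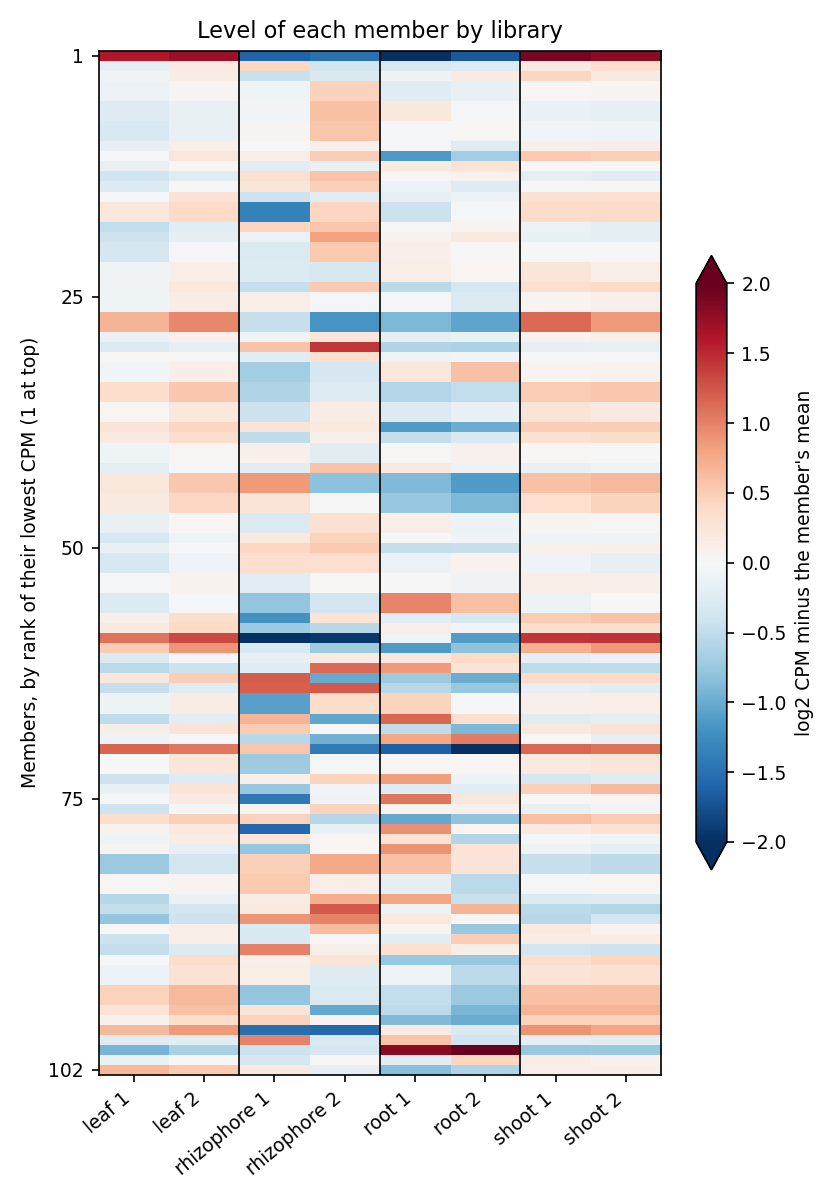
Each row is a member, ordered by its lowest CPM with the highest at the top, and each column a library; colour gives log2 CPM minus the member's mean over the 8 libraries, from -2 (blue) to 2 (red). Leaf and shoot columns look alike, the rhizophore columns differ from each other in many rows, and the top row, Smoe_00036198, is high in leaf and shoot.

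Across organs the members spread less than the models at large, though the floor at 200 CPM bounds how far a member can fall. The SD over the 4 organ means of log2 CPM had a median of 0.36 over members (0.05 to 2.04), 1.23 over all 23662 models tested and 1.53 over the 509 other models with a mean of at least 200 CPM. Those other models each fell below 200 CPM in some library by definition. A wide spread is thus built into them, and they are no control for the members. The pooled SD within organs had a median of 0.22 over members, 0.58 over all models tested and 0.51 over those others. The spread between organs exceeded that within organs in 63 of 102 members (61.8%), against 75.5% of all models tested. In 44 members (43.1%) the highest library was under 2-fold above the lowest, and in 88 (86.3%) it was under 4-fold above, against 3.27% and 21.5% of all models tested. With each profile taken once, 31 of 78 (39.7%) lay within 2-fold. Without the library labelled rhizophore replicate 2, the median SD over organ means of the members was 0.42 and that within organs 0.14, and 48 members lay within 2-fold. The spread between organs then exceeded that within organs in 89 of 102 members (87.3%), against 82.0% of all models tested. Rhizophore had 1 library in that setting, so the SD within organs came from leaf, root and shoot alone. The measure thus differs between the settings, and nothing is read from the change.

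All 13 members with numeric names had a lowest value of 200 to 400 CPM, so they were set beside the 33 Smoe members of the same bracket. The median of highest over lowest library was 3.20 over these numeric members and 2.68 over these Smoe members, and 1 numeric and 8 Smoe members lay within 2-fold. The SD within organs had a median of 0.49 over the numeric and 0.25 over the Smoe members. Across brackets the median of highest over lowest was 2.83 at 200 to 400 CPM, 1.84 at 400 to 800 CPM and 1.80 at 800 to 1600 CPM, but the lowest value enters both the bracket and the ratio, and no trend is read from it.

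**Figure D3:**
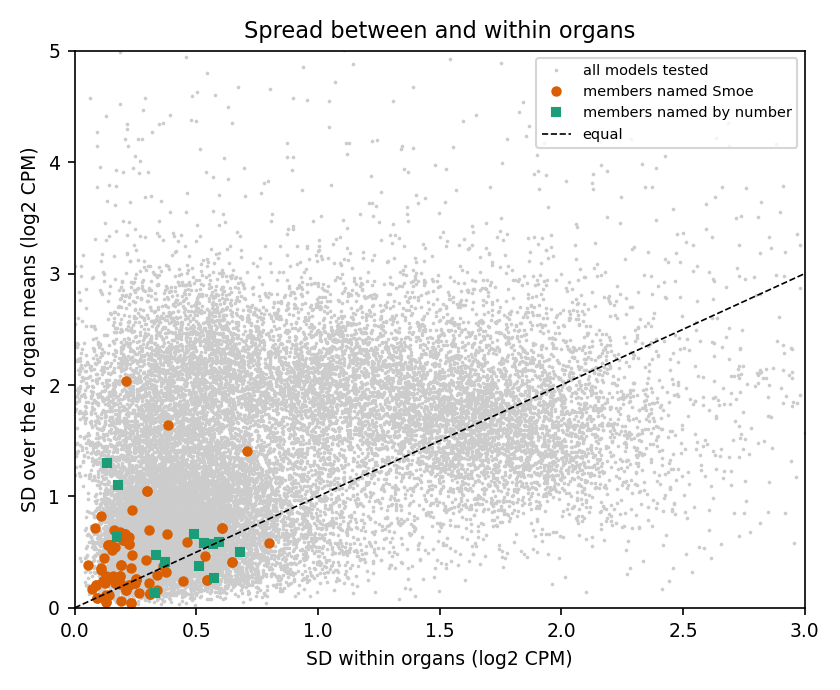
SD within organs (horizontal) against SD over the 4 organ means (vertical), both in log2 CPM, for the members (coloured) and all models tested (grey, with 167 outside the axes); the dashed line marks equal values. Most members sit near the lower left corner, and 63 of 102 lie above the line.

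The most even members were all near 600 CPM, and none of the 5 was a model with a numeric name. Smoe_00047512 and Smoe_00047651, with the same counts, stood at 546 and 615 CPM in leaf, 498 and 746 CPM in rhizophore, 669 and 566 CPM in root, and 630 and 616 CPM in shoot. Their SD over organ means was 0.05 on the log2 scale and their SD within organs 0.23, and the rhizophore libraries lay on either side of all others. Smoe_00005956 and Smoe_00006009, again with the same counts, stood at 564 and 618 CPM in leaf, 648 and 515 CPM in rhizophore, 613 and 639 CPM in root, and 618 and 604 CPM in shoot, a range of 1.26-fold. Smoe_00035022 stood at 665 and 663 CPM in leaf, 568 and 826 CPM in rhizophore, 617 and 627 CPM in root, and 647 and 645 CPM in shoot. In each of these profiles the extremes were rhizophore libraries.

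The widest members after Smoe_00036198 were Smoe_00035491, Smoe_00041819, 173723.v1 and 173603.v1. Smoe_00035491 stood at 3512 and 4126 CPM in leaf, 370 and 436 CPM in rhizophore, 1565 and 765 CPM in root, and 4440 and 4524 CPM in shoot, in the order shoot, leaf, root, rhizophore with no overlap between organs. The model 173603.v1 had the same order at a lower level, with 983 and 1121 CPM in leaf, 218 and 213 CPM in rhizophore, 698 and 512 CPM in root, and 1162 and 1077 CPM in shoot, where leaf and shoot overlapped. Smoe_00041819 stood at 2560 and 2378 CPM in leaf, 1684 and 432 CPM in rhizophore, 370 and 285 CPM in root, and 2540 and 2431 CPM in shoot. Its rhizophore libraries lay far apart, with replicate 1 toward shoot and replicate 2 toward root, and its SD within organs was 0.71. The model 173723.v1 was highest in root, without overlap with the other organs, with 207 and 252 CPM in leaf, 292 and 313 CPM in rhizophore, 1392 and 1620 CPM in root, and 233 and 237 CPM in shoot.

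**Figure D4:**
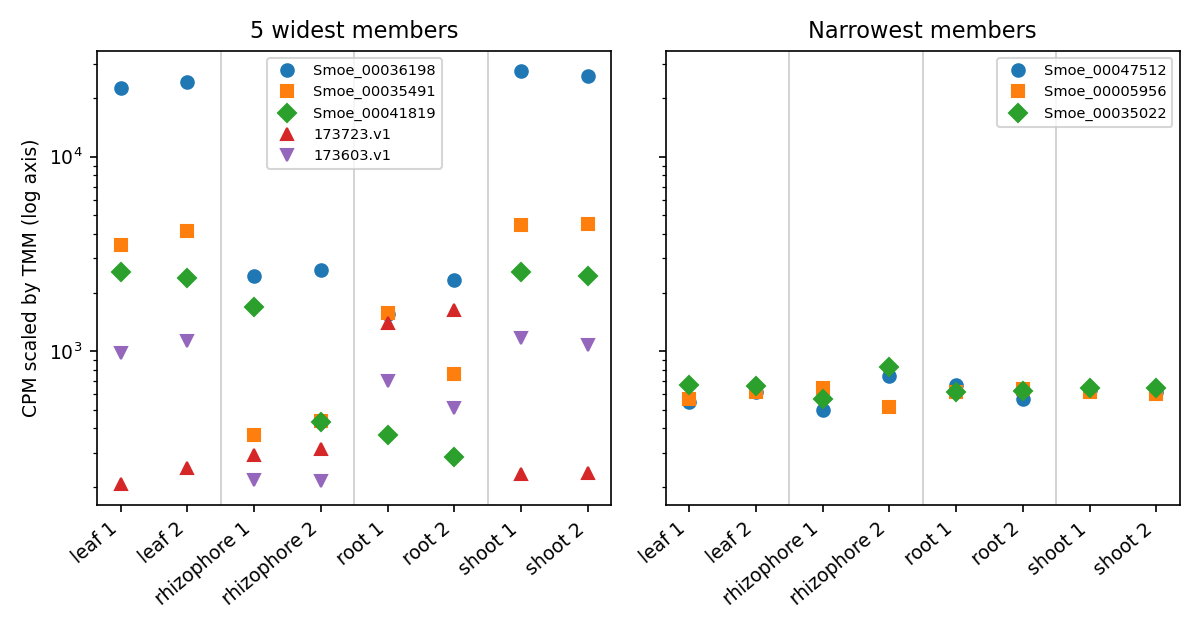
TMM CPM (log axis) of the 5 members with the widest spread over organs (left) and of 1 model from each of the 3 most even profiles (right), 1 point per library. On the left 4 models are highest in leaf and shoot and 173723.v1 in root; in root replicate 1 the points of Smoe_00036198 and Smoe_00035491 fall together. On the right all values lie between 498 and 826 CPM.

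Differences between organs were tested with edgeR's quasi-likelihood test on the whole table, with p-values adjusted by the Benjamini-Hochberg method over 23662 models and a threshold of 0.05. Where a range of adjusted p over the alternatives is given below, it takes in DESeq2's test beside edgeR's. Its lowest value is that of DESeq2's test for every named model but Smoe_00041819. The rule took its floor from the same libraries without regard to organ. The share of all models called in the same fit is printed beside the counts for this reason, and nothing is read from setting the 2 side by side. Among the 4 organs, 21 of 102 members differed (20.6%; 17 of 78 profiles), against 44.8% of all models tested. These 21 were 18 of the 89 Smoe members and 3 of the 13 with numeric names. By highest organ under TMM they were 1 of 1 member highest in leaf, 5 of 32 in rhizophore, 4 of 18 in root and 11 of 51 in shoot. The like shares over all models were not computed, and nothing is read from these counts. Leaving out rhizophore replicate 1 or 2 gave 61 members each time, with 70.8% and 67.5% of all models called. Leaving out a leaf, root or shoot library gave 6 to 8 members, with 12.8 to 26.6% of all models called.

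Rhizophore and root, both outgrowths of the same meristem, differed in 13 members (12.7%; 12 of 78 profiles), against 36.6% of all models tested, with 7 members higher in rhizophore and 6 lower (11.9% and 24.8% of all models). Smoe_00041374 averaged 1199 ± 17.3 CPM in rhizophore and 329 ± 32.9 CPM in root (SD, n = 2 each), which is 1.86 in log2 units (SE 0.35, adjusted p = 0.00545 in edgeR). Its libraries read 1186 and 1211 CPM in rhizophore and 352 and 306 CPM in root, and leaf and shoot at 378 to 465 CPM lay near root. Without the library labelled rhizophore replicate 2 the difference was 1.74. The authors' deposited table, whose Root average holds that library, lists this model at 1238 in Rhizophore and 801 in Root. Smoe_00041819 averaged 1058 ± 885 CPM in rhizophore and 327 ± 59.7 CPM in root, which is 1.69 in log2 units (SE 0.59, adjusted p = 0.0457 in edgeR). That call ended in 12 of 14 alternatives, and the log2 value was 2.25 with the disputed library left out and 0.32 with rhizophore replicate 1 left out (adjusted p = 0.365 in edgeR for the last, with 9.23e-13 to 0.365 over the alternatives).

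In the other direction, 173723.v1 averaged 302 ± 14.6 CPM in rhizophore and 1506 ± 162 CPM in root, which is -2.32 in log2 units (SE 0.36, adjusted p = 0.00208 in edgeR), and the call held in all 14 alternatives, at -2.48 with the disputed library left out. The authors' deposited table lists it at 308 in Rhizophore and 955 in Root. Smoe_00030697 averaged 344 ± 69.2 CPM in rhizophore and 1082 ± 147 CPM in root, with 393 and 296 CPM in the rhizophore libraries and 979 and 1186 CPM in those of root. The difference was -1.65 in log2 units (SE 0.36, adjusted p = 0.0112 in edgeR), or -1.58 without the library labelled rhizophore replicate 2, and leaf and shoot lay between at 514 to 574 CPM. For Smoe_00049898, called higher in rhizophore and named after its values were seen, the authors' deposited table runs the other way, with 1396 in Rhizophore and 1565 in Root.

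Leaving out the library labelled rhizophore replicate 2 gave 41 called members in place of 13, with 21 higher and 20 lower and all 13 among them, and 36.0% of all models called. Leaving out rhizophore replicate 1 gave 25 members, with 38.3% of all models called. Leaving out a leaf, root or shoot library gave 3 to 5 members, with 6.76 to 21.6% of all models called. The 4 libraries of these organs alone gave 1 member and 29.6% of all models. In that fit the calls of Smoe_00041374 and Smoe_00030697 ended while their differences were 1.84 and -1.68 (adjusted p = 0.0572 and 0.079 in edgeR). These were the highest over the alternatives, and the lowest were 1.63e-34 and 3.91e-10, both in DESeq2's test.

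Rhizophore and shoot differed in 12 members (11.8%; 9 of 78 profiles), against 21.8% of all models tested, with 4 higher in rhizophore and 8 lower (10% and 11.8% of all models). Smoe_00036198 averaged 2525 ± 123 CPM in rhizophore and 26664 ± 1110 CPM in shoot (SD, n = 2 each), which is -3.40 in log2 units (SE 0.56, adjusted p = 0.00241 in edgeR), and the call ended in the 4 libraries of these organs alone (0.0577, the highest over the alternatives, from 7.73e-28). Smoe_00035491 averaged 403 ± 46.2 CPM in rhizophore and 4482 ± 59.7 CPM in shoot, a difference of -3.48 (SE 0.51, adjusted p = 0.00136 in edgeR) that was called in all 14 alternatives. This was the 1 member called in all 3 contrasts among rhizophore, root and shoot. Its difference was -1.53 for rhizophore over root (SE 0.47, adjusted p = 0.0427 in edgeR) and -1.94 for root over shoot (SE 0.48, adjusted p = 0.027 in edgeR). The share of all models called in all 3 was not computed, so nothing is read from that count. Smoe_00053832 was higher in rhizophore, with 723 and 786 CPM there and 269 and 305 CPM in shoot, a difference of 1.39 (SE 0.34, adjusted p = 0.0168 in edgeR), and root at 456 and 403 CPM lay between. Smoe_00041374, named above, was higher in rhizophore than in shoot as well, where it read 465 and 447 CPM (1.39, SE 0.345, adjusted p = 0.0175 in edgeR).

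Both upward calls ended when a shoot library was left out, at differences of like size. Without shoot replicate 1 or 2, Smoe_00053832 stood at 1.31 and 1.49 in log2 units (adjusted p = 0.202 and 0.147 in edgeR, with 1.91e-13 to 0.202 over all alternatives). Smoe_00041374 stood at 1.42 and 1.37 (adjusted p = 0.177 and 0.19 in edgeR, with 6.31e-24 to 0.19 over all alternatives). Its call also ended without leaf replicate 1 or 2 (0.0517 and 0.0524 in edgeR), at 1.39 both times, and both calls ended in the 4 libraries alone (0.0726 for Smoe_00053832 and 0.0811 for Smoe_00041374). Without the library labelled rhizophore replicate 2 the differences were 1.49 for Smoe_00053832, 1.54 for Smoe_00041374, -3.29 for Smoe_00036198 and -3.44 for Smoe_00035491.

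The balance of calls turned with the scaling, to 7 higher and 6 lower with DESeq2's size factors (22.8% of all models called) and 39 higher and 3 lower with library sizes alone (34.3%). With the disputed library left out, 34 members were called (13 higher, 21 lower), and 32.2% of all models. With rhizophore replicate 1 left out, 42 were called (26 higher, 16 lower), and 41.9% of all models. Leaving out a shoot library gave 3 members (7.46 and 7.78% of all models), a leaf library 6 (18.5% both times) and a root library 9 (16.0 and 17.1%), and the 4 libraries of these organs alone gave 2 (9.67%).

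Root and shoot differed in 13 members (12.7%; 11 of 78 profiles), against 13.6% of all models tested, with 1 higher in root and 12 lower (5.23% and 8.4% of all models). The member higher in root was 173723.v1, at 1506 ± 162 CPM in root and 235 ± 2.60 CPM in shoot (SD, n = 2 each), a difference of 2.68 in log2 units (SE 0.36, adjusted p = 0.00201 in edgeR), called in all 14 alternatives. The largest falls were those of Smoe_00036198, at 1934 ± 533 CPM in root and 26664 ± 1110 CPM in shoot (-3.79, SE 0.57, adjusted p = 0.00324 in edgeR), and Smoe_00041819, at 327 ± 59.7 CPM in root and 2486 ± 77.3 CPM in shoot (-2.92, SE 0.61, adjusted p = 0.0144 in edgeR). Without root replicate 1 or 2 these calls ended, at differences of -3.22 and -3.86 for Smoe_00036198 (adjusted p = 0.0926 and 0.0508 in edgeR) and of -2.82 and -2.51 for Smoe_00041819 (0.174 both times). That of Smoe_00041819 also ended without shoot replicate 1 or 2 (0.0657 and 0.0585), with ranges over all alternatives of 8.02e-33 to 0.0926 and 2.43e-23 to 0.174. Of the 12, 7 were also lower in rhizophore than in shoot. Among these 7, Smoe_00008162 and Smoe_00008212 had the same counts, as did Smoe_00036691 and Smoe_00036836. Both contrasts use the same shoot libraries, and the overlap over all models was not computed, so nothing is read from it. Leaving out the library labelled rhizophore replicate 2 gave 47 members (21 higher, 26 lower) and 54.7% of all models, and leaving out rhizophore replicate 1 gave 48 (22 higher, 26 lower) and 55.0% of all models. Leaving out a root library gave 1 member (0.742 and 2.58% of all models), a shoot library 2 (3.19 and 3.27%) and a leaf library 6 (10.3 and 10.4%), and the 4 libraries of root and shoot alone gave 37 (55.1%).

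The sign of the members' median rested on the scaling in all 4 contrasts. The median log2 fold change of root over shoot was -0.19 over members and 0.64 over all models tested with TMM, -0.02 and 0.81 with DESeq2's size factors, and 1.17 and 1.99 with library sizes alone. With library sizes alone 63 members were called higher in root and 2 lower, and 55.4% of all models were called. For rhizophore over root the medians were 0.20 over members and -0.50 over all models with TMM, 0.13 and -0.58 with DESeq2's size factors, and -0.15 and -0.87 with library sizes alone. The calls there were 4 higher and 6 lower with DESeq2's size factors (36.2% of all models) and 2 higher and 12 lower with library sizes alone (37.1%). The members' median was -0.19, -0.09 and 0.81 for rhizophore over shoot and -0.09, -0.03 and 0.17 for leaf over shoot under the same 3 scalings, beside 0, 0 and 0.89 and 0, 0 and 0.13 over all models.

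Leaf and shoot differed in 0 members in edgeR's test, against 0.0127% of all models tested, and 0 members had an unadjusted p under 0.05, where 3.09% of all models did. DESeq2's test also called 0, and 0.261% of all models. A fit on these 4 libraries alone called 2 members, of which 1 was higher and 1 lower, and 0.759% of all models. The median absolute log2 fold change was 0.09 over members and 0.21 over all models, and 90 of 102 members were lower in leaf, without a call. With library sizes alone 96 of 102 were higher in leaf, so no direction is given. In total 78 members passed neither the test among the 4 organs nor any of the 4 contrasts. The like share over all models was not computed. These 78 include all 44 whose libraries lay within 2-fold. The range and the tests use the same values, so nothing is read from it.

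**Figure D5:**
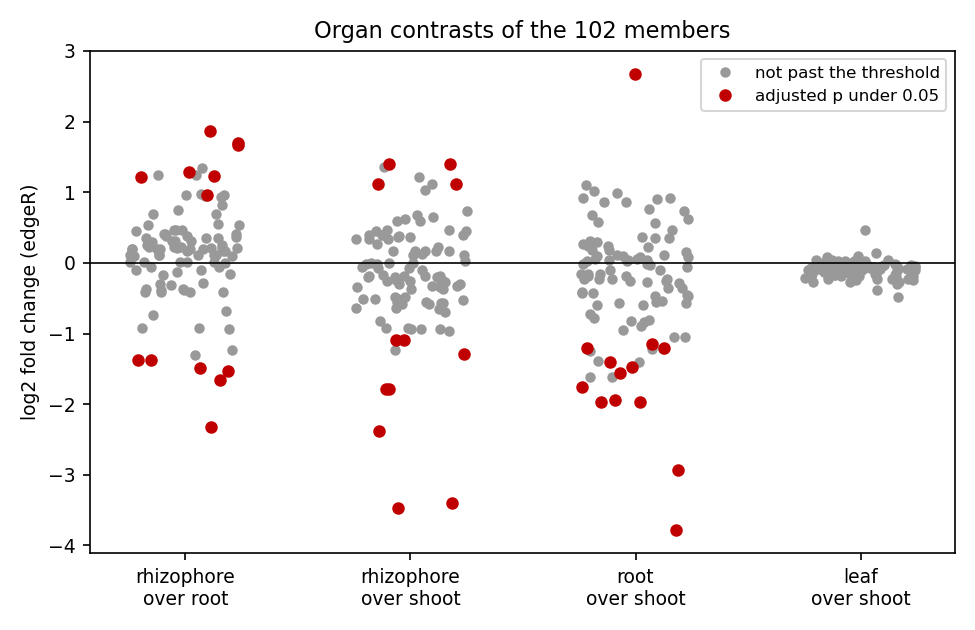
log2 fold change (edgeR, TMM; vertical axis) of the 102 members in 4 contrasts, each a column named as the first organ over the second, with red points at an adjusted p under 0.05 and horizontal jitter for display. Root over shoot shows 12 red points below 0 and 1 above, and leaf over shoot holds a narrow band near 0 without red points.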

How the data were processed

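The authors deposited raw read counts of each gene model for the 8 libraries and, in a second table, a normalized signal averaged over the libraries of an organ, both per the file headers. The libraries were single-end reads of 50 bases, per the labels' protocols. Bowtie2 and edgeR are named in the submitters' processing notes. The sources used here do not give versions, genome build, counting tool or the treatment of reads with several matches. Libraries were made with a Nugen Ovation amplification kit, per the labels' protocols. The smallest count above 0 was 5.

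Members were chosen on TMM CPM computed with edgeR 4.0.16 in R 4.3.3 from all 25004 models, with a minimum of 200 CPM and at most 150 models. The members and lists were chosen with earlier results of these data known. Tests used edgeR's robust quasi-likelihood fit with 1 coefficient for each organ and all 8 libraries, after filterByExpr kept 23662 models and removed 1342. The organs share 1 estimate of spread because each has 2 libraries. The SE is the absolute log2 difference over the square root of F. Log2 CPM used a prior count of 2. The procedure was run on simulated counts that had the same spread in every model and organ. That run cannot speak to the unequal spread of the organs here. Weights behind the authors' averages came from non-negative least squares on CPM (scipy 1.17.1). The named models were, by rule, the 10 with the largest minimum, the 5 with the smallest and the 5 with the largest spread over organ means, the 2 per direction and contrast with the largest change among those past the threshold whose libraries do not overlap, and 3 models on either side of the end of the ranking. Alternatives were other scalings, no filter, DESeq2 1.42.0, a replicate block, leaving out each library, fits on 2 organs and taking profiles with the same counts once, the last, library sizes alone and the spread without the disputed library being added after the data were seen. Where leaving out a library left an organ with 1 library, that library was assumed to vary like those of the other organs, and the filter was set anew. For these fits and for the list of members, the TMM scaling was also computed anew. Functional lists and promoter motifs could not be used, since 0 of 25004 models matched the reference table.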

Additional observations from a re-analysis of the deposited data

How the results depend on the processing

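Counts of members called moved with most choices, given here among the 4 organs, for rhizophore against root, rhizophore against shoot and root against shoot in that order, from 21, 13, 12 and 13. Of all models 44.8, 36.6, 21.8 and 13.6% were called. DESeq2's test gave 47, 31, 31 and 34 (49.7, 32.6, 35.7 and 29.8% of all models). A replicate block gave 10, 5, 7 and 6 (22.8, 15.8, 18.3 and 9.26%); the numbers are not said to pair the samples, and replicate 1 minus 2 correlated between organs at -0.015 to 0.071. Library sizes alone gave 65, 14, 42 and 65 (64.2, 37.1, 34.3 and 55.4%). Leaving out 1 library gave 6 to 61, 3 to 41, 3 to 42 and 1 to 48 (12.8 to 70.8, 6.76 to 38.3, 7.46 to 41.9 and 0.742 to 55.0%). The 2 organs alone gave 1, 2 and 37 for the 3 contrasts (29.6, 9.67 and 55.1%), and 2 for leaf against shoot (0.759%), which stayed at 0 in the other alternatives. DESeq2's size factors, no filter and identical counts taken once changed none of these counts by over 1.5 times. The cause was not tested.

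The list held 107 to 115 models when a library was left out and the TMM scaling computed anew. It held 56 at 400 CPM, 150 at 100 CPM, 116 without TMM factors (90 of them members) and 103 with DESeq2's size factors (102 of them). The share of counts in leaf, rhizophore, root and shoot was 8.5%, 10.7%, 12.4% and 7.79%. It was 6.36%, 7.85%, 8.54% and 5.88% at 400 CPM, 6.81%, 8.19%, 9.33% and 6.28% with identical counts once, and 9.46% in leaf and 8.93% in shoot without TMM factors. Leaving out 1 library gave 8.51 to 26.1%, 10.3 to 13.0%, 11.99 to 16.5% and 7.78 to 26.4%. In these ranges the organ that lost a library is given by its other library alone. No named model's contrast changed sign. The lowest count of a member was 481, and the part of depth in any result was not tested.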
